A study of Mus musculus with 27 samples.

Results

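The mitosis genes described here are 39 named mouse genes of cell division, taken by symbol from a table of raw RNA-seq read counts for 55487 genes in 27 libraries of mouse heart ventricle. All 39 were found, and all 39 passed the filter on low counts in every comparison. They were grouped by role into 7 cyclins and mitotic entry kinases, 2 transcription factors, 3 genes of chromosome structure and surface, 4 of the centromere and kinetochore, 4 of the chromosomal passenger complex, 5 of the spindle checkpoint and mitotic exit, 8 spindle motors and microtubule proteins, and 6 of the central spindle and cytokinesis.

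The series raised or removed MBNL1, which binds RNA and acts in splicing and RNA stability, and asked how this bears on the postnatal maturity of the heart. Control ventricles, labelled Ctl with no further genotype, were sampled at postnatal day 1 (P1, 4 libraries), P7 (3 libraries) and P60 (7 libraries). MBNL1 gain-of-function ventricles (Tg) were sampled at P7 (4 libraries). MBNL1 loss-of-function ventricles (KO) were sampled at P60, 7 days (5 libraries) or 14 days (4 libraries) after knockout, and the P60 controls carry the same times (4 and 3 libraries). The strain, the way the knockout was induced and the driver of the transgene are not given in the sources used here, nor whether each library came from a separate animal, so that p-values measure the spread between libraries. Libraries keep the numbers of their titles, so the KO libraries run from 1 to 9 and the P60 controls from 1 to 7.

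A cell enters mitosis when cyclin-bound Cdk1 becomes active with the help of Plk1 and the Aurora kinases. The chromosomes are then condensed, their kinetochores are attached to spindle microtubules, and the checkpoint proteins hold back the anaphase-promoting complex until all are attached. The central spindle and an actomyosin ring afterwards divide the cell, and most genes of this machinery are transcribed late in the cell cycle under the DREAM and MuvB complexes with the factors Mybl2 and Foxm1. In the mouse heart, most cardiomyocytes leave the cell cycle in the first weeks after birth, while other cell types keep the ability to divide.

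Upstream sequence was in hand for 32 of the 39 genes, from RefSeq (GRCm38.p6), as the 250 bases before each start. The sequences of 6 genes are shown because 5 of them carried both elements known from late cell-cycle promoters and rose in the KO libraries at 7 days, while Cenpf, the last, fell there. Capitals mark the CHR element, TTTGAA (or TTCAAA on the other strand), and the CCAAT box, CCAAT (or ATTGG on the other strand). In Ccnb2 the CHR element lies upstream of the stretch shown. Each run is 150 bases on the gene's own strand and holds no annotated exon: Cdk1 at chr10:69352939-69353088 (minus strand), Ccnb2 at chr9:70421555-70421704 (minus), Top2a at chr11:99024190-99024339 (minus), Mki67 at chr7:135716380-135716529 (minus), Kif11 at chr19:37376232-37376381 (plus) and Cenpf at chr1:189688087-189688236 (minus).
Cdk1: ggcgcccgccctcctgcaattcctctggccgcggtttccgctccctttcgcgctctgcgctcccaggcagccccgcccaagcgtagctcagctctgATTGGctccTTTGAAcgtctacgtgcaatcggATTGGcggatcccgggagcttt
Ccnb2: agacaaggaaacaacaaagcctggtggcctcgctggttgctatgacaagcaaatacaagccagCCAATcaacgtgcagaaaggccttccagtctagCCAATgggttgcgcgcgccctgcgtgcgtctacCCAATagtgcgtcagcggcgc
Top2a: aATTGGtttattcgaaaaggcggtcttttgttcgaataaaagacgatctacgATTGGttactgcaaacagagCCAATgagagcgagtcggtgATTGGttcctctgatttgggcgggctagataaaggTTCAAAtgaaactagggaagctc
Mki67: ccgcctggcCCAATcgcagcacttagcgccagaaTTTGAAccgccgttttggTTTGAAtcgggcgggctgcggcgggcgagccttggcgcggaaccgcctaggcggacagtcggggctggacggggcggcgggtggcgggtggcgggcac
Kif11: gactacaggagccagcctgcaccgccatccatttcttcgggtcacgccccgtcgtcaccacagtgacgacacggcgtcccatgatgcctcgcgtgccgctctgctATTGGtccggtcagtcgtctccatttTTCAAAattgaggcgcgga
Cenpf: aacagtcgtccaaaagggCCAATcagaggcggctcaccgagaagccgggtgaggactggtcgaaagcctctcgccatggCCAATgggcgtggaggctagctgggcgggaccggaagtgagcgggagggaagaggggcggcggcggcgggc

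TTTGAA, searched on both strands, was found before 11 of the 32 genes (34.4%), against 16.0% of all 32851 promoters of that length. In these counts a gene had a match if any of its starts did, and Ect2 and Prc1 have several starts. The share of all promoters counts each start alone, so the units differ. CCAAT, likewise on both strands, was found before 25 of the 32 (78.1%), against 33.8% of all promoters, and 2 or more CCAAT boxes stood before 16 of the 32, against 10.1% of all promoters. Both elements were found before 10 of the 32 (31.2%), against 5.55%. The letters GCGGGAA or GGCGGGA, which may overlap each other and resemble an E2F site, were found before 9 of the 32 (28.1%), against 11.4%. The stretch shown for Cenpf has CCAAT boxes and no TTTGAA. Ccnb1, Hmmr, Plk1 and Bub1 also had no TTTGAA in the 250 bases, and they rose in the KO libraries at 7 days. These are matches of letters, and binding was not measured.

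Each library held 21929347 to 25675115 counts. Levels are CPM (library-scaled counts) after TMM scaling over the 27 libraries, with log2 CPM computed with a prior count of 2, and 3 counts corresponded to 0.0959 to 0.188 CPM. Of the 1053 values of the 39 genes, none was 0 and 3 rested on 3 counts or fewer. The targeted gene, Mbnl1, was at 219, 103, 167, 115 and 168.5 CPM in KO libraries 1 to 5, and at 153, 147, 150 and 147 CPM in the controls at 7 days, so the gene's total did not separate these groups (log2 fold change 0.05 ± 0.20 SE, adjusted p = 0.86). At 14 days Mbnl1 fell by 0.34 ± 0.09 on the log2 scale (adjusted p = 0.012). Which part of the gene was deleted is not given in the sources used here, so that a gene-level count cannot check the label, and "KO" below means the libraries labelled KO. In the Tg libraries Mbnl1 was at 4082, 2936, 3435 and 3508 CPM, against 105, 97.0 and 97.8 CPM in the P7 controls. Esr1, the estrogen receptor gene, was at 195.5 to 1956 CPM in the KO libraries and at most 1.5 CPM in the P60 controls. It was at 234, 651 and 195.5 CPM in KO libraries 1, 3 and 5 and at 1652 CPM or more in the other KO libraries. The KO libraries thus differed from their controls in Esr1 reads as well as in the knockout label. What goes with each of these differences cannot be told apart here. KO libraries 1 and 5 stood apart over all genes, with a chi-square per degree of freedom of 16.2 between them and of 102 to 147 against libraries 2 to 4, which differed by 10.98 to 52.8 among themselves. Their cardiomyocyte marker sums were 28589 and 21581 CPM, against 44311 to 46603 CPM in libraries 2 to 4, and their fibroblast sums 4564 and 4689 CPM, against 7995 to 9724 CPM.

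Across the groups the mitosis genes were highest in the neonatal ventricles, intermediate in the KO ventricles and lowest in the P60 controls. The median over the 39 genes was 5.64, 5.69, 4.19 and 4.56 log2 CPM in P1 control libraries 1 to 4, and 4.56, 4.70 and 4.72 in P7 control libraries 1 to 3. The Tg libraries stood at 4.10, 4.01, 3.98 and 4.19, all below the P7 controls. KO libraries 1 to 5 stood at 2.78, 2.68, 3.45, 2.55 and 3.27, against 0.89, 0.62, 1.06 and 1.07 in the P60 controls 1 to 4. These 2 groups did not overlap. KO libraries 6 to 9 stood at 1.81, 1.70, 0.44 and 2.92, against 0.39, 0.35 and 1.20 in the P60 controls 5 to 7. Library 8 lay within these controls and library 9 within the range of the KO libraries at 7 days.

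**Figure D1:**
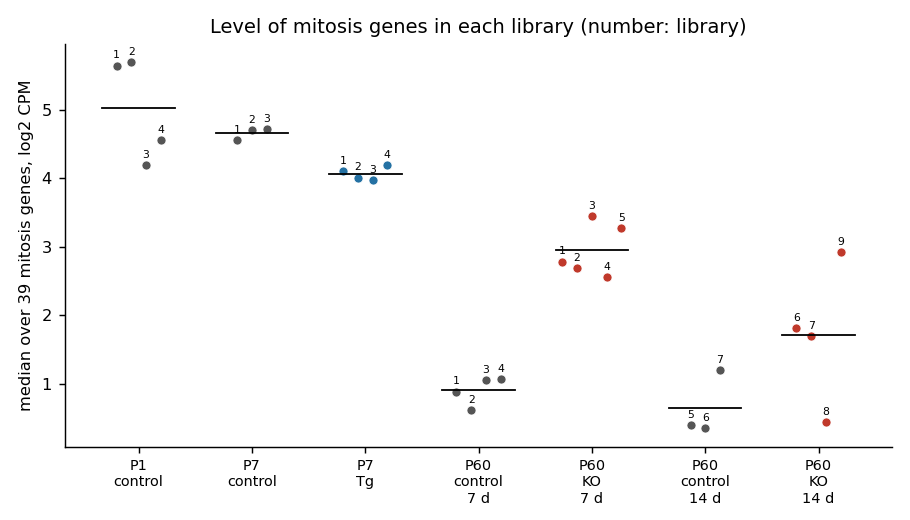
Median level over the 39 mitosis genes (vertical axis, log2 CPM) in each of the 27 libraries, by group (horizontal axis). Points are libraries with their numbers and bars are group means. P1 libraries 1 and 2 lie above 3 and 4, the 5 KO libraries at 7 days lie above their controls, and KO library 8 at 14 days lies among its controls.

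Per kilobase of exon, which allows genes to be compared, Ube2c, the ubiquitin-conjugating enzyme of the anaphase-promoting complex, was the most abundant member in the P1 controls (37.0 CPM per kilobase), followed by Ccnb2 (25.2), Cdc20 (24.6) and Ccna2 (23.5). In the P60 controls at 7 days Cenpa was the most abundant (4.86 CPM per kilobase), with Cdc20 next at 1.52 and Ncapg the lowest at 0.0882. In the KO libraries at 7 days Cdc20 (5.20), Ccnb2 (5.12), Plk1 (4.59), Ccna2 (4.54) and Ube2c (4.48) stood above Cenpa (4.15). These are mean levels, and the differences between genes were not tested.

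**Figure D2:**
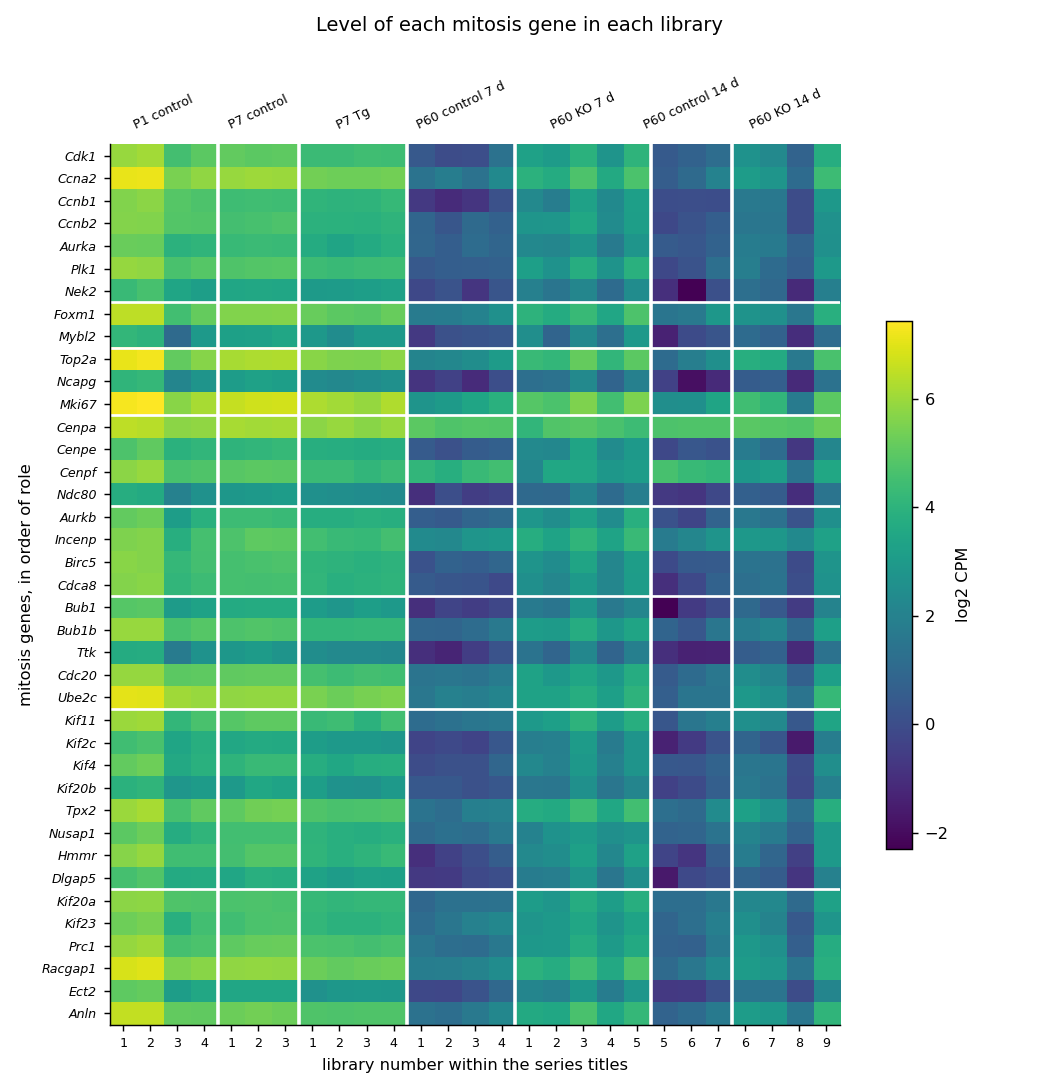
Level of each mitosis gene (rows, in order of role, white lines between roles) in each library (columns, by group), as log2 CPM by colour. Cenpa and Cenpf keep high levels in the P60 controls, and KO library 8 is darker than the other KO libraries.

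At 7 days after knockout, genes of all 8 roles were higher in the KO libraries than in their controls. By edgeR's quasi-likelihood test with Benjamini-Hochberg adjustment over 15167 genes, 37 of the 39 rose, Cenpf fell, and Cenpa did not pass. Over all genes tested, 26.4% were called higher and 24.3% lower. The same 37 genes were higher in every KO library than in every control, as were 23.3% of all genes. The median log2 fold change was 2.14, against 0.03 over all genes. With scaling by total count alone the all-gene median moved to 0.45 and the share of calls that were higher moved from 52.0% to 83.5%, and the members' median was then 2.56.

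All 7 cyclins and entry kinases rose, with a median log2 fold change of 2.45. Cdk1, the kinase that drives entry into mitosis, was at 9.50, 8.16, 15, 6.71 and 16.2 CPM in KO libraries 1 to 5 and at 1.28, 0.892, 0.944 and 2.49 CPM in controls 1 to 4. It rose by 2.98 ± 0.38 (log2 scale, SE, adjusted p = 0.00013). Ccnb1, its cyclin B1 partner, was at 4.87, 3.52, 9.51, 4.93 and 9.19 CPM, against 0.548, 0.390, 0.5 and 1.01 CPM. Libraries 3 and 5 were the highest for both genes and no KO library overlapped a control. Ccnb1 had the largest change of the 39 (3.37 ± 0.40, adjusted p = 8.7e-05). Plk1, the Polo-like kinase of mitotic entry and spindle assembly, was at 9.12, 6.34, 13.7, 6.51 and 14.7 CPM, against 1.28, 1.45, 1.5 and 1.60 CPM (2.78 ± 0.31, adjusted p = 5.3e-05). Aurka, the Aurora kinase of the spindle poles, had the smallest change of the role (1.5 ± 0.25, adjusted p = 0.00063).

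Both transcription factors rose. Foxm1, a forkhead factor of late cell-cycle genes, was at 15.8, 12.9, 19.2, 11.1 and 26.2 CPM in KO libraries 1 to 5, against 3.29, 3.40, 4.0 and 5.98 CPM in the controls (2.02 ± 0.28, adjusted p = 0.00022). Mybl2, the B-Myb factor that joins the MuvB complex, was at 5.59, 1.70, 4.84, 2.30 and 7.64 CPM, against 0.548, 1.0, 1.11 and 1.18 CPM (2.18 ± 0.46, adjusted p = 0.0028). Mybl2 varied more between KO libraries than the other members named here, with libraries 2 and 4 closest to the controls.

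The 3 genes of chromosome structure and surface rose. Mki67, which encodes the Ki-67 protein that coats mitotic chromosomes, was at 29.1, 25.9, 46.7, 22.5 and 46.3 CPM, against 6.57, 7.92, 10.7 and 14.8 CPM in the controls (1.76 ± 0.30, adjusted p = 0.00068). Top2a, the topoisomerase that untangles sister chromatids, was at 19.8, 17.6, 35.1, 17.4 and 31.8 CPM, against 4.2, 4.52, 5.50 and 8.17 CPM (2.11 ± 0.29, adjusted p = 0.00018). The lowest KO library of Mki67 exceeded its highest control by less than that of Top2a, and neither gene's groups overlapped. Ncapg, a subunit of condensin I, rose by 2.27 ± 0.38 (adjusted p = 0.00063).

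The centromere and kinetochore role was split. Cenpe, a kinetochore motor, and Ndc80, which binds spindle microtubules at the kinetochore, rose (2.30 ± 0.29, adjusted p = 0.00012, and 1.99 ± 0.34, adjusted p = 0.00075). Cenpf (chr1:189640606-189688086, GRCm38, minus strand), a large protein of the outer kinetochore and nuclear envelope, was at 4.45, 11.2, 11.1, 7.15 and 8.32 CPM in KO libraries 1 to 5 and at 17.2, 13.9, 19.8 and 22.2 CPM in controls 1 to 4. Every KO library was below every control, as for 22% of all genes, and Cenpf fell by 1.12 ± 0.25 on the log2 scale (adjusted p = 0.0036). Cenpa (chr5:30666777-30674830, plus strand), the histone H3 variant that marks centromeres, was at 17.4, 27.8, 30.2, 25.2 and 20.9 CPM, against 31.2, 26.8, 28.4 and 27.6 CPM. Its groups overlapped and the difference did not pass the test (−0.24 ± 0.15, adjusted p = 0.21).

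**Figure D3:**
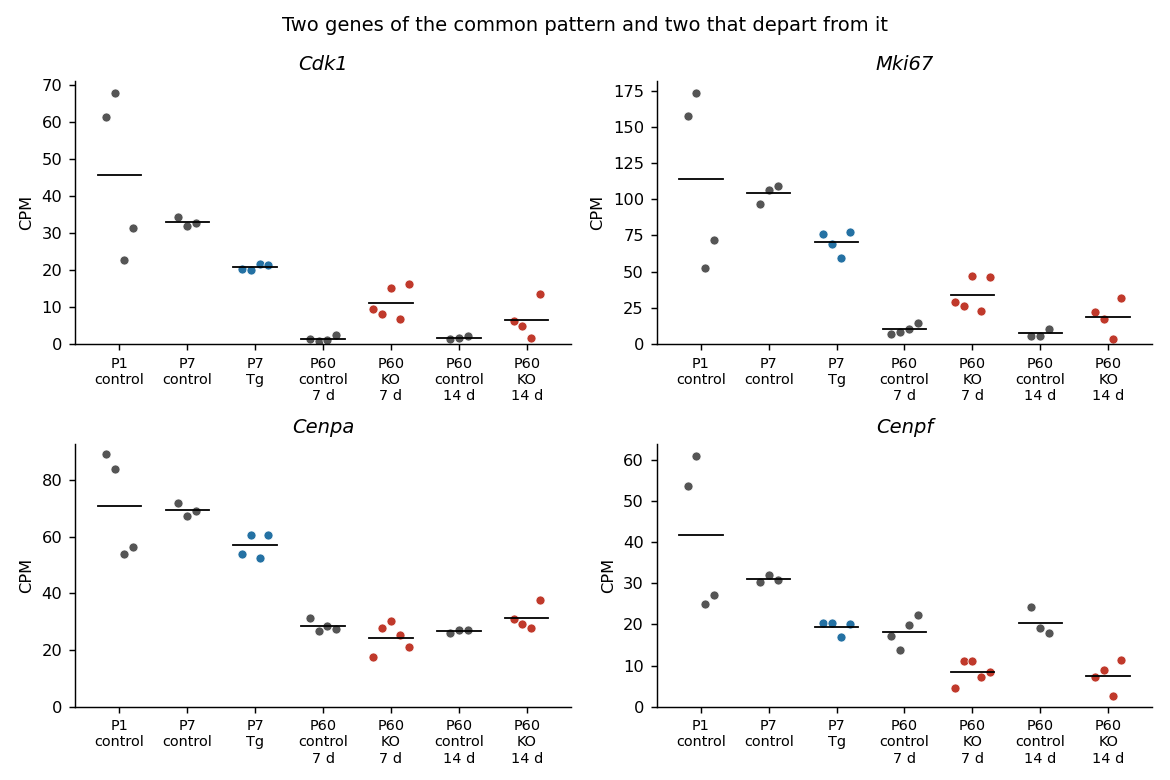
Levels of Cdk1, Mki67, Cenpa and Cenpf (vertical axes, CPM, each from 0) in every library by group (horizontal axes). Points are libraries and bars are group means. Cdk1 and Mki67 are high in the P1 and P7 libraries and intermediate in the KO libraries except library 8, which is within the controls for Cdk1 and below them for Mki67, whereas Cenpf is lower in every KO library than in every P60 control.

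All 4 members of the chromosomal passenger complex, which corrects faulty attachments and later guides cytokinesis, rose (median 2.30). Aurkb, its kinase, was at 7.02, 5.53, 9.63, 5.29 and 14.3 CPM, against 1.46, 1.28, 1.78 and 2.01 CPM in the controls (2.34 ± 0.33, adjusted p = 0.00023). Birc5, the survivin subunit, was at 6.68, 5.34, 10.4, 4.45 and 8.71 CPM, against 1.03, 1.62, 1.44 and 1.83 CPM (2.25 ± 0.29, adjusted p = 0.00013). In both genes every KO library exceeded the highest control by more than 2-fold. Incenp, the scaffold, had the smallest change among the members that rose (1.22 ± 0.24, adjusted p = 0.0016).

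All 5 checkpoint and exit genes rose (median 2.09). Bub1, a checkpoint kinase of the kinetochore, was at 3.11, 2.75, 6.75, 3.03 and 4.40 CPM, against 0.426, 0.725, 0.611 and 0.769 CPM (2.64 ± 0.34, adjusted p = 0.00013). Cdc20 and Ube2c, which act with the anaphase-promoting complex, rose by 1.76 ± 0.20 (adjusted p = 6.9e-05) and 1.67 ± 0.20 (adjusted p = 9.2e-05).

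All 8 spindle motors and microtubule proteins rose (median 2.25, from 1.33 for Nusap1 to 2.95 for Hmmr). Kif11, the kinesin-5 motor that pushes spindle poles apart, was at 7.86, 9.13, 15.9, 8.45 and 14.0 CPM, against 2.13, 2.45, 2.78 and 3.08 CPM in the controls (2.07 ± 0.25, adjusted p = 9.3e-05). Hmmr, a spindle-associated hyaluronan receptor, was at 4.79, 5.45, 9.39, 4.57 and 9.58 CPM, against 0.426, 0.669, 0.944 and 1.42 CPM (2.95 ± 0.38, adjusted p = 0.00012). Libraries 3 and 5 were again the highest, and the groups did not overlap.

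All 6 genes of the central spindle and cytokinesis rose (median 2.11, from 1.33 for Kif23 to 2.33 for Anln). Anln, anillin of the contractile ring, was at 12.1, 11.3, 24.6, 11.2 and 18.3 CPM, against 2.50, 2.23, 3.05 and 4.5 CPM (2.33 ± 0.31, adjusted p = 0.00015). Racgap1, the GTPase-activating subunit of centralspindlin, was at 15.3, 13.2, 21.8, 12 and 26.1 CPM, against 3.47, 3.63, 4.11 and 5.33 CPM (2.09 ± 0.26, adjusted p = 0.00011).

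The KO libraries were not alike in these genes. Library 3 was the highest of the 5 for 23 members, library 5 for 15 and library 2 for 1, and library 4 was the lowest for 26. KO libraries 1, 3 and 5 had the highest member medians, though library 1 (2.78 log2 CPM) was close to library 2 (2.68). They also had the lower Esr1 levels and the higher summed levels of 10 macrophage markers (1629, 1771 and 1822 CPM, against 1272 and 1310 CPM in libraries 2 and 4). Neutrophil sums (12.4, 16.9 and 20.1 CPM, against 9.05 and 7.84 CPM) were higher in them too. So were epicardial sums (19.9, 18.9 and 20.3 CPM, against 13.1 and 12.7 CPM) and lymphocyte sums. Erythroid sums were lower in them, and the other sums did not separate these libraries. Macrophages were thus not the only cells whose markers followed this order. Without libraries 1 and 5 the count of members that rose was still 37 and their median was 2.06. In bulk tissue, a change in the number of cells of a type and a change in RNA per cell cannot be told apart.

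Markers of other cells moved with the comparison at 7 days. All 10 macrophage markers rose, with summed levels of 1272 to 1822 CPM in the KO libraries against 486 to 568.3 CPM in the controls. Of 10 fibroblast markers 6 rose and 1 fell (sums 4564 to 9724 CPM against 2913 to 3593 CPM). None of the macrophage or fibroblast markers was at 0 in any library. Of 10 cardiomyocyte markers 6 fell (sums 21581 to 46603 CPM against 66965 to 72328 CPM), and of 10 endothelial markers 6 fell. Of 8 mural markers 2 rose and 4 fell. Of 5 erythroid markers tested 4 fell (sums 38.5 to 70.2 CPM against 68.3 to 160.3 CPM). Lymphocyte sums were 3.33 to 5.58 CPM in the KO libraries against 2.01 to 2.45 CPM in the controls, and 2 of 4 markers tested rose. Neutrophil sums were 7.84 to 20.1 CPM against 2.31 to 9.31 CPM, and 1 of 4 markers tested rose, while Ly6g was at 0 in KO library 3. The part of these cell types in the members' change was not tested.

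At 14 days 38 of the 39 log2 fold changes were above 0, with a median of 1.35 against 0.01 over all genes, and 11 members passed the test as higher. Of the 14976 genes tested, 21.8% were called higher and 22.4% lower, so the members' share of higher calls was not far from that of all genes. The members that rose were Cdk1, Ccna2, Ccnb1 and Aurka among the entry kinases, Top2a and Ncapg of the chromosomes, Ttk and Ube2c of the checkpoint and exit, and Prc1, Ect2 and Anln of cytokinesis. No member of the passenger complex, the spindle motors or the transcription factors passed. The count of members called higher ran from 2 to 36 when a library was left out, so this split by role is not firm. Cenpf again fell. The unadjusted p was under 0.05 for 30 members, and with scaling by total count the share of all calls that were higher moved from 49.4% to 81.9%, the all-gene median to 0.39 and the members' median to 1.71.

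Cdk1 was at 6.28, 4.76, 1.69 and 13.6 CPM in KO libraries 6 to 9 and at 1.29, 1.63 and 2.21 CPM in controls 5 to 7 (1.92 ± 0.59, adjusted p = 0.024). Ccnb1 was at 3.07, 2.95, 0.907 and 7.31 CPM, against 0.923, 0.941 and 0.918 CPM (1.93 ± 0.60, adjusted p = 0.024). In both genes libraries 6, 7 and 9 stood above all controls and library 8 did not. Plk1 was at 3.57, 2.08, 1.44 and 7.48 CPM, against 0.800, 1.07 and 2.32 CPM (1.35 ± 0.58, adjusted p = 0.084), and here library 7 was within the controls as well.

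Ttk, the Mps1 kinase that starts the spindle checkpoint, had the largest change at 14 days. It was at 1.42, 1.60, 0.371 and 2.55 CPM, against 0.431, 0.314 and 0.324 CPM (2.04 ± 0.60, adjusted p = 0.019). Bub1 was at 1.97, 1.26, 0.577 and 4.05 CPM, against 0.123, 0.565 and 0.864 CPM (1.88 ± 0.70, adjusted p = 0.052), where the control at 0.123 CPM rested on 2 counts. Anln was at 8.52, 7.36, 2.84 and 16.6 CPM, against 1.66, 2.07 and 3.19 CPM (1.91 ± 0.52, adjusted p = 0.013). Ect2, the exchange factor that activates RhoA at the division plane, was at 2.66, 2.64, 0.907 and 4.35 CPM, against 0.554, 0.565 and 0.972 CPM (1.89 ± 0.50, adjusted p = 0.012).

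Other members had similar patterns with wider errors. Mki67 was at 21.8, 17.2, 3.34 and 31.6 CPM, against 5.66, 5.77 and 10.5 CPM (1.31 ± 0.57, adjusted p = 0.087). Top2a was at 13.8, 12.5, 3.01 and 24.7 CPM, against 2.09, 3.58 and 5.73 CPM (1.81 ± 0.59, adjusted p = 0.029). Library 8 lay below every control for Mki67 and between controls for Top2a. Foxm1 was at 6.51, 5.93, 2.89 and 14.4 CPM, against 2.71, 3.07 and 7.24 CPM (0.75 ± 0.51, adjusted p = 0.26), and only library 9 exceeded control library 7. Mybl2 was at 2.11, 1.60, 0.412 and 2.21 CPM, against 0.308, 0.878 and 1.13 CPM (1.0 ± 0.56, adjusted p = 0.18).

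The passenger complex, spindle and centralspindlin examples followed the same order of libraries. Aurkb was at 2.98, 2.47, 1.07 and 5.77 CPM, against 1.05, 0.753 and 1.67 CPM (1.38 ± 0.52, adjusted p = 0.054). Birc5 was at 2.57, 2.51, 0.866 and 6.56 CPM, against 0.861, 1.32 and 1.35 CPM (1.39 ± 0.58, adjusted p = 0.075). In these genes library 9 was more than 3-fold above the highest control, whereas library 8 lay within the controls. Kif11 was at 5.82, 4.81, 1.24 and 10.4 CPM, against 1.17, 2.82 and 3.67 CPM (1.10 ± 0.59, adjusted p = 0.16). Racgap1 was at 8.20, 7.06, 2.64 and 14.3 CPM, against 2.03, 2.89 and 4.92 CPM (1.27 ± 0.49, adjusted p = 0.060). For both, libraries 6, 7 and 9 were above all controls.

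Cenpf was at 7.24, 8.79, 2.56 and 11.2 CPM in KO libraries 6 to 9, against 24.3, 19.0 and 17.8 CPM in controls 5 to 7. Every KO library was below every control, as for 23.7% of all genes, and Cenpf fell by 1.46 ± 0.35 on the log2 scale (adjusted p = 0.0073). Cenpa was at 31.1, 29.1, 27.7 and 37.6 CPM, against 26, 27 and 27.1 CPM. It was the single member for which all 4 KO libraries exceeded all 3 controls, as did 24.3% of all genes, yet its change was small and did not pass (0.22 ± 0.12, adjusted p = 0.14).

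Libraries 8 and 9 set the spread of the KO libraries at 14 days, and the controls were spread as well. Control library 7 was the highest control for 33 members, with a median of 1.20 log2 CPM, against 0.39 and 0.35 in control libraries 5 and 6. The SD of the library medians was 1.01 in the KO libraries and 0.479 in the controls. Library 9 was the highest and library 8 the lowest KO library for all 39 members. Library 8 was above all controls for 1 member and below all controls for 10, while libraries 6, 7 and 9 were above all controls for 37, 36 and 38 members. Without library 8 the test called 36 members higher, without library 9 it called 6, and without both it called 32. Leaving out library 6, control library 5 or control library 6 gave 6, 3 and 2. Over all genes, leaving out a library gave 5132 to 7256 calls in either direction, against 6623 with all libraries. Libraries 8 and 9 were close in summed macrophage markers (796 and 840 CPM) and erythroid markers (49.5 and 50.6 CPM). Library 8 was lower than library 9 in fibroblast (6352 and 7021 CPM), endothelial (1080 and 1344.5 CPM) and mural sums (992 and 1102.5 CPM). Its epicardial (15.6 and 32.5 CPM), lymphocyte (3.05 and 4.22 CPM) and Schwann cell sums were lower too. Library 8 was higher than library 9 in cardiomyocyte sums (54183 and 48254 CPM), neutrophil sums (6.35 and 4.80 CPM) and Esr1 (1956 and 1652 CPM).

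Over the group, 9 of 10 macrophage markers rose at 14 days (sums 796 to 1148 CPM, against 399 to 619 CPM in the controls), and 8 of 10 fibroblast markers rose and 1 fell (sums 6176 to 7028 CPM, against 3651 to 4199 CPM). Of 10 cardiomyocyte markers 6 fell and 3 rose. The part of these cell types was not tested.

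**Figure D4:**
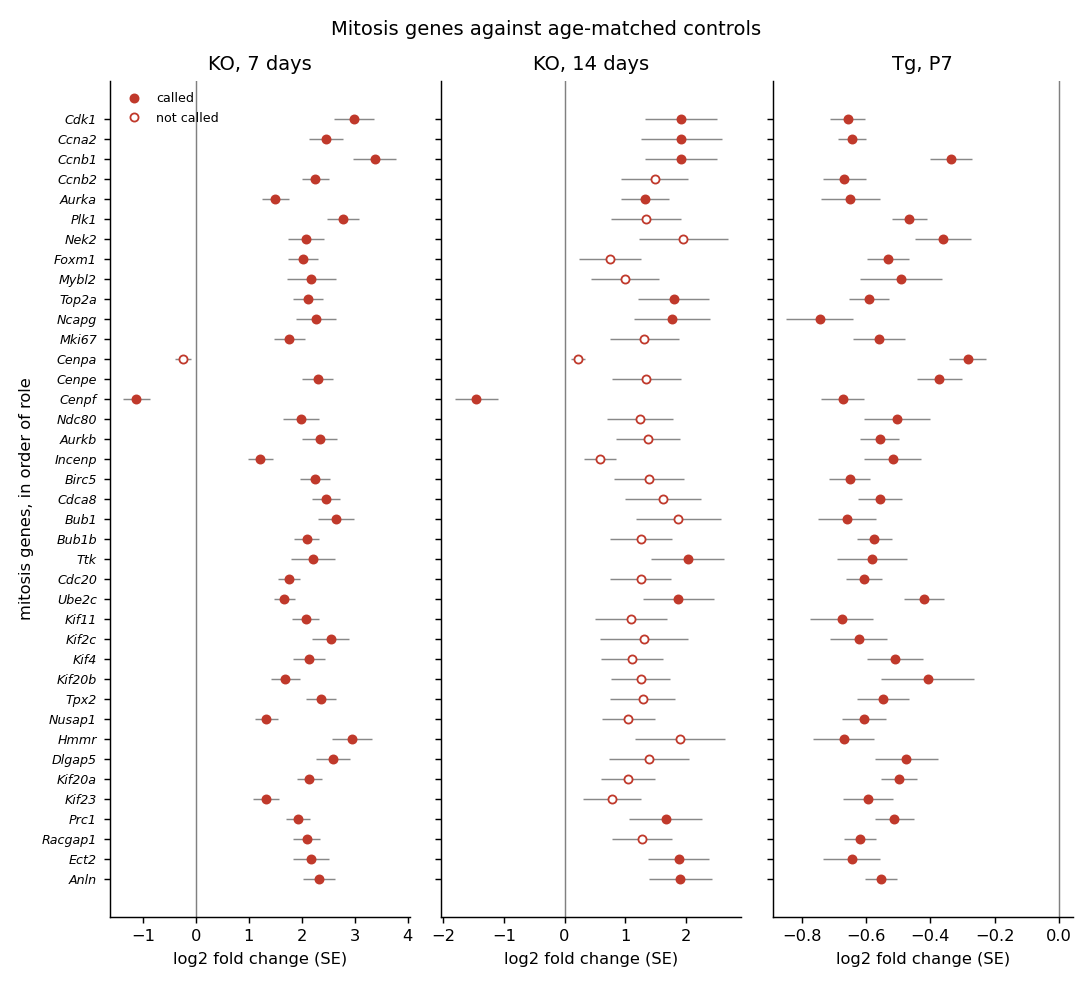
Log2 fold change (horizontal axes, bars are 1 SE; the scales differ between panels) of each mitosis gene (vertical axis, in order of role) against age-matched controls for KO at 7 days, KO at 14 days and Tg at P7. Filled points passed the test and open points did not. All points lie right of 0 at 7 days except Cenpa and Cenpf, and all lie left of 0 in Tg.

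Whether the response differed between the times was tested as an interaction. The fold change at 14 days minus that at 7 days was below 0 for 37 of the 39 members, with a median of −0.74, but none passed the test. Of all 15951 genes, 0% passed, where 1662 had an unadjusted p under 0.05, the smallest adjusted p was 0.0693, and DESeq2 called 147. Among the members 1 had an unadjusted p under 0.05. Ccnb1 had the lowest value (−1.43 ± 0.78, adjusted p = 0.53), followed by Plk1 (−1.40 ± 0.68, adjusted p = 0.49), and Cenpa the highest (0.48 ± 0.20, adjusted p = 0.44). A lower response at 14 days was therefore not shown at this number of libraries.

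The level of each member in the KO libraries was placed on the range between P60 controls of the same time (0%) and P1 controls (100%), on the log2 CPM scale. At 7 days the median place was 52.0%, with quartiles of 49.0% and 54.7%. Mybl2 (64.4%), Aurkb (61.8%), Tpx2 (60.7%) and Cdk1 (59.9%) stood highest. Ube2c (35.5%), Aurka (38.5%) and Nusap1 (40.5%) stood lowest among the members that rose. Cenpf stood at −105.5% and Cenpa at −19.9%, outside the range. By library the median place was 47.3, 42.1, 64.7, 40.9 and 63.4% in KO libraries 1 to 5.

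At 14 days the median place was 26.2% (quartiles 23.0% and 32.1%), highest for Ttk (38.5%) and Anln (36.8%), and again lowest for Cenpf (−172.6%). By library it was 33.0, 26.5, −4.82 and 53.9% in KO libraries 6 to 9, so that library 9 lay among the 7-day libraries and library 8 at the P60 controls. The place depends on the scale. On linear CPM the medians were 19.4% and 7.57%. It also depends on the P1 libraries: without P1 libraries 3 and 4 the medians were 44.1% and 22.6%, and without libraries 1 and 2 they were 61.3% and 32%.

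**Figure D5:**
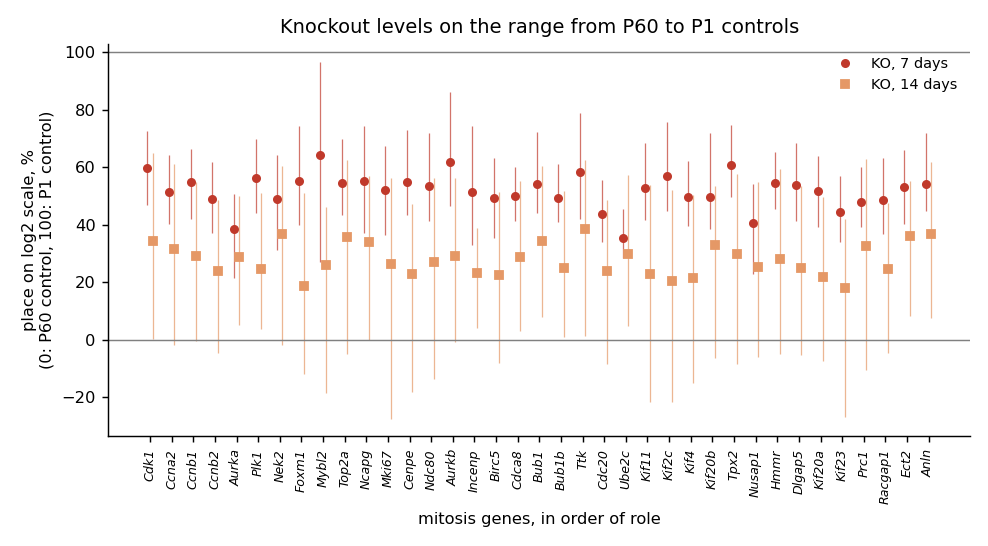
Place of each mitosis gene in the KO libraries (vertical axis, percent of the log2 distance from P60 controls at 0 to P1 controls at 100) at 7 and 14 days, by gene in order of role (horizontal axis). Cenpf, outside the range at both times, and Cenpa, outside it at 7 days, are left out. The 7-day values of the 37 genes run from 35.5% to 64.4% and the 14-day values from 17.9% to 38.5%.

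Measured directly against the neonatal controls, in a fit of all 27 libraries, the KO libraries remained lower. At 7 days all 39 members were lower than in the P1 controls (median −2.04, 31.1% of all genes lower) and than in the P7 controls (median −1.56, 29.4% of all genes lower). At 14 days all 39 were lower than at P1 (median −2.96, 31.2% of all genes lower) and than at P7 (median −2.53, 29.1% of all genes lower). With scaling by total count the share of calls that were higher moved from 50% to 34.2% against P1 and from 50% to 36.9% against P7 at 7 days, and from 49.5% to 29.2% and from 49.2% to 30.4% at 14 days. These comparisons share their libraries with those above.

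In the Tg ventricles at P7 all 39 members fell, by a narrow range of fold changes. The median was −0.56, against 0.00 over all genes, and 15.8% of the 15893 genes tested were called lower. For 38 members every Tg library was below every P7 control, as for 19.4% of all genes. The exception was Kif20b, a kinesin of late mitosis, at 8.96, 6.36, 6.19 and 7.75 CPM in Tg libraries 1 to 4 against 7.79, 11.1 and 10.2 CPM in the controls (−0.41 ± 0.14, adjusted p = 0.047). No member fell by as much as 2-fold.

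Ncapg had the largest fall. It was at 5.23, 4.68, 5.30 and 6.01 CPM in the Tg libraries, against 8.31, 9.57 and 8.81 CPM in the P7 controls (−0.74 ± 0.10, adjusted p = 0.00017). Cdk1 was at 20.2, 19.99, 21.7 and 21.3 CPM, against 34.2, 31.9 and 32.5 CPM (−0.66 ± 0.05, adjusted p = 3.1e-06). Ccnb1 was at 16.7, 16.0, 16.4 and 18.6 CPM, against 21, 21.9 and 21.3 CPM (−0.34 ± 0.07, adjusted p = 0.0017). Cdk1 thus differed by more than its cyclin partner Ccnb1, which had among the smallest falls, though the difference between the genes was not tested. Cenpa had the smallest fall, from 71.9, 67.4 and 69.0 CPM in the controls to 54.0, 60.5, 52.5 and 60.7 CPM in Tg (−0.28 ± 0.06, adjusted p = 0.0025).

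Cenpf fell here with the rest, at 20.3, 20.2, 17.0 and 20.2 CPM in Tg against 30.2, 32 and 30.9 CPM in the controls (−0.67 ± 0.07, adjusted p = 1.2e-05). Mki67 was at 76.2, 68.8, 59.4 and 77.5 CPM, against 97.0, 106 and 109 CPM (−0.56 ± 0.08, adjusted p = 0.00022). Foxm1 was at 36.3, 31.5, 29.8 and 36.0 CPM, against 48.3, 47.8 and 48.9 CPM (−0.53 ± 0.07, adjusted p = 5.9e-05). In all 3 genes the groups stood apart. Mybl2 was at 7.44, 5.31, 7.84 and 7.78 CPM, against 9.26, 9.67 and 11 CPM (−0.49 ± 0.13, adjusted p = 0.010).

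Among the effector roles, Aurkb was at 13.8, 13.4, 14.5 and 14.1 CPM in Tg, against 20.9, 21 and 19.8 CPM (−0.56 ± 0.06, adjusted p = 2.8e-05). Bub1 was at 8.46, 6.95, 8.80 and 7.78 CPM, against 12.4, 12.8 and 12.7 CPM (−0.66 ± 0.09, adjusted p = 0.00013). Kif11 was at 19.6, 21.2, 15.7 and 22.7 CPM, against 29.4, 32.9 and 32.8 CPM (−0.68 ± 0.10, adjusted p = 0.00023). Each gene's Tg libraries lay below its controls, and those of Aurkb varied least. Anln was at 26.7, 26.5, 27.2 and 26.8 CPM, against 38.4, 41.5 and 38.3 CPM (−0.55 ± 0.05, adjusted p = 5.4e-06).

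Beside this fall, 9 of 10 macrophage markers were higher in Tg (sums 174 to 230.2 CPM against 107 to 138 CPM), as were 6 of 10 fibroblast markers, and 4 of 10 cardiomyocyte markers rose while 2 fell. Of the 4878 genes called in either direction among the 15893 tested, 48.6% were higher. The part of these cell types was not tested. With all 27 libraries in a single fit, none of the 39 passed, at the same median (−0.56), and 973 genes passed in place of 4878.

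In the controls the members fell between P7 and P60, and the difference between P1 and P7 rested on the P1 libraries chosen. All 39 were called lower at P60 than at P7 (median −3.89, 36% of all 16388 genes lower) and than at P1 (median −4.32, 38.6% lower), and every P7 control was above every P60 control for all 39, as for 32.3% of all genes. Hmmr had the largest fall from P7 to P60 (−4.90 ± 0.35, adjusted p = 1.5e-08) and Ccnb1 from P1 to P60 (−5.70 ± 0.22, adjusted p = 1.5e-11). Cenpf had the smallest in both (−0.69 ± 0.23, adjusted p = 0.015, and −1.11 ± 0.21, adjusted p = 0.00021). Cenpa was next (−1.34 ± 0.12 from P7, adjusted p = 1.8e-07). With scaling by total count the share of calls that were higher moved from 48.1% to 18.0% (P60 against P7) and from 47.6% to 19.3% (P60 against P1), the all-gene medians to −0.65 and −0.71.

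From P1 to P7 all 39 fold changes were below 0 (median −0.42), and 4 members passed as lower, namely Ccnb1, Ccnb2, Ube2c and Kif20a, beside 11.2% of all genes. The same 4 genes had no overlap between the ages, as for 15% of all genes. With scaling by total count the share of calls that were higher moved from 52.4% to 41.0%. Ccnb1 was at 47.9, 53.5, 29.4 and 26.5 CPM in P1 libraries 1 to 4, against 21, 21.9 and 21.3 CPM at P7 (−0.87 ± 0.21, adjusted p = 0.0071). Ect2 had the lowest fold change, from 32.6, 34.9, 8.76 and 11.5 CPM to 10.9, 11 and 10.9 CPM (−0.99 ± 0.39, adjusted p = 0.079). For Ect2 the P1 libraries lay on both sides of the P7 controls. Cenpa, with 89.2, 83.7, 53.8 and 56.3 CPM against 71.9, 67.4 and 69.0 CPM, had the value nearest 0 (−0.02 ± 0.14, adjusted p = 0.93).

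The P1 libraries fell into pairs. Libraries 1 and 2 exceeded libraries 3 and 4 for all 39 members, as for 29.6% of all genes, with a median ratio of 2.46 over the members (1.57 to 3.43) and of 1.01 over all genes. Cdk1 was at 61.2 and 67.7 CPM in the former and at 22.8 and 31.3 CPM in the latter. Mki67 was at 158 and 173 CPM, and at 52.7 and 71.8 CPM. Libraries 1 and 2 were above every P7 control for all 39 members, and libraries 3 and 4 were below every P7 control for 26. Without libraries 3 and 4 all 39 members passed as lower at P7, and without libraries 1 and 2 none did, 4 passed as higher (12.3% of all genes with all libraries) and the median was 0.30. These counts follow from the order of the libraries just given and are no further support for the split. They were not set against the share of all genes in each setting. Macrophage marker sums were 70.8 and 76.5 CPM in libraries 1 and 2 and 112 and 109 CPM in libraries 3 and 4. Cardiomyocyte sums were also lower in libraries 1 and 2 (37117 and 40961 CPM, against 42641 and 44679 CPM), as were neutrophil sums (6.10 and 4.14 CPM, against 10.96 and 8.03 CPM). Mural sums were lower by little against library 3 (1672.5 and 1668 CPM, against 1683 and 2054.5 CPM). Lymphocyte sums were lower but very low in all (0.623 and 0.684 CPM, against 1.60 and 1.62 CPM), and each library had markers at 0. Fibroblast sums were higher in libraries 1 and 2 (3595 and 3593 CPM, against 2349 and 3450 CPM). Endothelial, erythroid, epicardial and Schwann cell sums did not separate the pairs. The part of these cells in the split was not tested.

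The other mitotic genes of a longer list went the same way. At 7 days 54 of 59 further mitotic genes rose in the KO libraries and 2 fell (median 2.03). Depdc1a and Cdca3, a trigger of mitotic entry, changed most (3.19 ± 0.39, adjusted p = 0.00010, and 2.90 ± 0.36, adjusted p = 0.00011). Of 30 S phase genes 24 rose and 1 fell (median 1.15), led by Tyms, thymidylate synthase (2.79 ± 0.28, adjusted p = 3.1e-05), and Chaf1b, a chromatin assembly subunit (2.62 ± 0.46, adjusted p = 0.00097). Both lists had a higher share of higher calls than the 26.4% of all genes.

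Counts in the broader complexes stand beside 26.4% of all genes called higher and 24.3% called lower. Of 19 DREAM, MuvB and E2F genes 8 rose and 4 fell (median 0.46), with E2f1 (1.71 ± 0.36, adjusted p = 0.0026) and Mybl1 (1.48 ± 0.37, adjusted p = 0.0069) changing most. Of 16 condensin and cohesin genes 4 rose and 1 fell (median 0.06), shares at or below those of all genes. The condensin subunits Ncapg2 (1.86 ± 0.26, adjusted p = 0.00022) and Ncaph (1.56 ± 0.25, adjusted p = 0.00056) changed most. Of 17 anaphase-promoting complex genes 4 rose and 4 fell (median 0.07), again near the shares of all genes, with Fbxo5, an inhibitor of the complex, at 1.34 ± 0.32 (adjusted p = 0.0054) and the subunit Anapc15 at 0.92 ± 0.15 (adjusted p = 0.00050).

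At 14 days 16 of 58 further mitotic genes rose and 2 fell (median 1.35), and 9 of 30 S phase genes rose and 1 fell (median 0.52), not far from the 21.8% of all genes called higher. In Tg 51 of 59 further mitotic genes fell and 1 rose (median −0.52), and 23 of 30 S phase genes fell and 1 rose (median −0.37), whereas 6 of 19 DREAM, MuvB and E2F genes fell and 3 rose (median −0.03), where 15.8% of all genes were called lower. Depdc1a fell by 0.80 ± 0.12 in Tg (adjusted p = 0.00037) and Tyms by 0.55 ± 0.08 (adjusted p = 0.00029).

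Some members share sequence or strand with neighbours in the GENCODE M21 annotation, and whether counting used strand is not given in the sources used here. Exons of Ccna2, Plk1, Nek2, Ncapg, Cdca8, Cdc20, Ube2c, Kif4, Nusap1, Kif20a and Prc1 overlap exons on the opposite strand, those of Foxm1 and Top2a overlap other genes on the same strand, and Ccnb1, Ccnb2 and Kif4 have annotated pseudogenes. Reads of these pairs may be divided or lost in counting.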

How the data were processed

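Bulk RNA-seq of total RNA from 27 mouse ventricle libraries was deposited by the authors as a table of raw read counts per Ensembl gene. STAR, featureCounts, Salmon and DESeq2 with GRCm38 (mm10) are named in the submitters' processing notes, with no versions or order. Symbols and positions came from GENCODE M21. Of 55487 genes, 55141 had a symbol, 346 had none and 35145 had a count. Totals were 21929347 to 25675115 counts per library, and no pair of libraries in a group differed as little as sampling noise (lowest chi-square per degree of freedom 6.34).

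Tests used edgeR 4.0.16 (R 4.3.3): filterByExpr, TMM, then the quasi-likelihood test with Benjamini-Hochberg adjustment over all genes tested. Each comparison of KO or Tg with its age-matched controls was fitted on its own groups. Called, rose and fell mean an adjusted p under 0.05. The knockout groups and their controls were fitted together for the interaction, and the controls of the 3 ages together. The comparisons of KO libraries with P1 or P7 controls were fitted on all 27 libraries. The SE is the log2 fold change divided by the square root of F. Scripts were tested on simulated data. Alternatives were DESeq2 1.42.0, its size factors, total-count scaling, no filter, all libraries in a single fit, a replicate block, and leaving out libraries. Leaving out KO libraries 8 and 9 together or P1 libraries 1 and 2 together was chosen after seeing the data.

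Values are given for a member or more of each role and for the 2 most changed genes of each pathway list at 7 days. They are also given for the highest and lowest fold change in each comparison, and for members not called or called against the majority where 5 or fewer. The comparisons of KO libraries with P1 or P7 controls are the exception, as no single member is named there. The members and lists were chosen with earlier results of these data known. Ahsp, of the erythroid markers, was not matched.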

Additional observations from a re-analysis of the deposited data

Results flagged for a closer look

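In all, 115 groups of 4 or 5 libraries were examined, for the median over all members and for members chosen by role or by fold change. These members included Ube2c and Incenp, whose values are not given by library, and did not include Kif20b. Of the groups, 3 held a library far from the others, where chance gives about 1 in 20. All 3 were Tg groups at P7. Mybl2 was at 5.31 CPM in Tg library 2, against 7.44 to 7.84 CPM in the other Tg libraries. Cenpf was at 17.0 CPM in Tg library 3, against 20.2 to 20.3 CPM. Ect2 was at 6.13 CPM in Tg library 1, against 7.23 to 7.34 CPM. Each of these values was lower than the rest of its group, and a different library stood apart for each gene.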

How the results depend on the processing

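The 37 members that rose and the fall of Cenpf at 7 days kept their numbers under every alternative run, with medians of 2.0 to 2.31 when a library was left out and 2.56 with total-count scaling. At 14 days the 11 members called higher became 23 with DESeq2, 33 with total-count scaling, 34 without the low-count filter, 29 with all libraries in a single fit, 24 with the replicate block, 32 without KO libraries 8 and 9, and 2 to 36 when a library was left out. With total-count scaling 81.9% of all calls were higher, against 49.4% in the main fit. Leaving out a library gave 5132 to 7256 genes called in all. These member counts were not set against the share of all genes in each setting. The interaction over all genes went from 0 calls to 147 with DESeq2, 2 with total-count scaling, 13 without the filter, 52 in the single fit, 3 without KO libraries 1 and 5, and 0 to 21 when a library was left out. In Tg the single fit called 0 members and 973 genes. P7 against P1 gave 0 members lower in the single fit, 39 without P1 libraries 3 and 4, and 1 to 18 when a library was left out (2508 to 4492 genes in all). Without P1 libraries 1 and 2 it gave 0 lower and 4 higher, with the median at 0.30, Top2a at 0.80, Cenpa at 0.33 and Aurkb at 0.80, and the P60 against P1 median was −3.48. The member counts of P7 against P1 were likewise not set against the share of all genes in each setting. With total-count scaling the P60 against P7 median was −4.49, and the mean of the library medians was 0.56 log2 CPM in the P60 controls at 7 days, 4.27 in Tg and 4.88 in the P7 controls. The place at 7 days was 19.4% on linear CPM. The cause of these shifts was not tested. Replicate numbers did not pair the libraries (correlations of same-numbered libraries −0.207 to 0.0818), and the replicate block moved no other count of members by more than 1.5 times. Depth limits mainly the P60 controls, where 3 values rested on 3 counts or fewer.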
